A study of Mus musculus with 3 samples.

Results

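The cells described here are macrophages of mouse tumours that carried transcripts of complement C1q together with those of the cell division machinery. They were selected on measured UMIs (unique molecular identifiers, each standing for a captured transcript). Barcodes outside the deposited cDC1 table, with at least 1000 genes and mitochondrial genes under 10% of UMIs, were members where C1qa, C1qb and C1qc together had 5 UMIs or more, Mki67 2 or more and Top2a 1 or more, with no UMI of Xcr1, Ncr1 or Cd3e. This rule took 489 of 30209 barcodes, and 26051 barcodes passed the limits on genes and mitochondrial UMIs.

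Single-cell RNA sequencing was performed on dendritic cells sorted at day 5 from MCA205 LA-OVA tumours, which grow from a mouse fibrosarcoma line carrying ovalbumin as a model antigen. There was 1 library for each of 3 genotypes, each made from pooled mice of 6 to 20 weeks. WT C57BL/6J mice (25 males and 12 females) were compared with sGSN-/- mice (15 males and 16 females), which lack secreted gelsolin, a plasma protein that severs actin filaments, and with sGSN-/-Clec9a-/- mice (10 males and 17 females), which lack in addition DNGR-1, the actin-binding receptor of cDC1s encoded by Clec9a. Both knockout strains had been backcrossed to C57BL/6J, both lacked secreted gelsolin, and no group lacked DNGR-1 alone. The sort kept live CD45+ CD11c+ MHCII+ cells negative for CD88 and for markers of B, T, NK and red cells, neutrophils and eosinophils. Pre-cDCs, cDC1s and cDC2s were then mixed in set proportions, and numbers of macrophages in the libraries are not their numbers in the tumour.

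The libraries held 176578136, 109270958 and 113411930 UMIs in WT, sGSN-/- and sGSN-/-Clec9a-/-, the order in which values of the libraries are given throughout. Members numbered 203, 127 and 159, with a median depth of 23466, 27743 and 26248 UMIs. There were 81 barcode sequences found in 2 libraries, and 3 members carried one. Members were compared with 2641 C1q macrophages outside the cycle (the same C1q rule with Mki67 and Top2a at 0, median 15059 UMIs), and with 798 cycling Xcr1 cells (Xcr1 2 UMIs or more, C1q under 5, Ncr1 and Cd3e 0, the same cycle rule, median 23757 UMIs). The fit also held 3284 Xcr1 cells outside the cycle. Levels are given as CPM, the UMIs of a gene per 1000000 UMIs summed over the cells of a class in a library. Fold changes are on the log2 scale, with the p adjusted over all genes tested by edgeR. The value after ± is an SE derived from the edgeR test, whose fit holds all classes jointly, with 3 libraries a class. It is not the spread over the 3 libraries of a class. Fold changes use TMM-scaled library sizes and so can differ slightly from ratios of CPM. Genes were named by the rule given with the methods, except that Btg2, Bub1, C3ar1, Ccnd1, Cd40, Cd7, Cd86, Folr2, H2-Aa, Hilpda, Igf1r, Irf7, Ldha, Msr1, Plk1, Slc2a1, Stab1, Tk1, Trem2, Tyms and Vegfa were chosen after their values were seen. So were the genes of the third comparison that passed under every alternative. Genes named between genotypes, other than Apoe, were taken from the largest and smallest ratios of the libraries.

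Macrophages are phagocytes that clear dying cells and debris, and in tumours they arise both from blood monocytes and from local division of resident cells. Complement C1q, which opens the classical complement pathway and binds dying cells, is made mainly by macrophages, whereas dendritic cells of the Xcr1 lineage take up dead cells and present their antigens to CD8 T cells. To divide, a cell licenses and copies its DNA, then condenses and separates the chromosomes, and each step has its own transcripts.

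The 3 C1q genes are neighbours on the minus strand of chromosome 4 (GRCm38), C1qb at chr4:136880129-136886187, C1qc at chr4:136889804-136893065 and C1qa at chr4:136895917-136898803. In members the C1q sum ran from 5 to 673 UMIs with a median of 124, Mki67 from 2 to 58 with a median of 7, and Top2a from 1 to 67 with a median of 9. Few members stood at the C1q limit: 5 had exactly 5 UMIs, 7 cells that met every other condition had 4, and 185 had 1 to 4. More stood at the limits of the cycle rule, with 56 members at 2 UMIs of Mki67 and 66 at 1 of Top2a, while 97 cells of the C1q gate had 1 UMI of Mki67 with Top2a and 147 had 2 or more of Mki67 without Top2a. Xcr1, Ncr1 or Cd3e removed 198 cells that met the C1q and cycle rules, 153 of them through Xcr1.

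Of 25 macrophage identity genes, none used by the rule, 21 were detected in more than 50% of members, against 1 in cycling Ncr1 cells. With every cell thinned to 8000 UMIs the numbers were 17 and 1. Macrophages outside the cycle had 19 such genes (18 thinned) and cycling Xcr1 cells 7 (5 thinned). Csf1r, the receptor for the growth factor CSF-1, was detected in 99.2% of members (95% Clopper-Pearson interval 97.9 to 99.8) and 12.1% of 430 cycling Ncr1 cells, an NK-lineage class that should lack it and had a similar depth (median 23507.5 against 25021 UMIs). The same shares were 84.9% (81.4 to 87.9) and 7.21% for the Fc receptor Fcgr1, and 77.9% (74 to 81.5) and 3.72% for the lipid receptor Trem2. They were 56.4% (51.9 to 60.9) and 1.16% for Adgre1, which encodes F4/80, and 51.5% (47 to 56) and 0.93% for C5ar1, which encodes the CD88 that the sort had selected against at the protein level. For each gene the intervals of the 2 classes were far apart, and they cover counting error only. With every cell thinned to 8000 UMIs the shares for Csf1r were 88.5% and 5.70%. Cycling cells with no C1q UMI that met every other condition were closer to members. With the libraries pooled, these 366 cells had 82.2 CPM of Csf1r, 48.4 of Fcgr1, 9.07 of Trem2, 7.95 of Adgre1 and 1.67 of C5ar1. Members with 5 to 19 C1q UMIs had 204, 59.1, 47.4, 26.9 and 15.2, so Csf1r and Fcgr1 were not confined to members. Mertk, a receptor for dying cells, was the least often detected of the list, in 17.6% of members (14.3 to 21.3), and Maf (25.2%), Pf4 (27.4%) and Ms4a7 (34.4%) were detected in a minority too, as was Folr2 of the macrophage subset list, in 4.09%. Birc5, the survivin gene and the remaining marker given with the label, was detected in 83% of members (79.4 to 86.2) at 218, 290.4 and 285 CPM.

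Clec9a checked the genotype labels. Cycling Xcr1 cells had 149, 141 and 0 CPM and members 2.90, 1.46 and 0. Both classes of the sGSN-/-Clec9a-/- library had no UMI of Clec9a, and members held little of it in the other libraries as well. Gsn stood at 223, 252 and 255 CPM in members, and since UMIs were not split between the secreted and cytoplasmic transcripts this checks nothing.

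Lists of cell types other than macrophages, monocytes and conventional dendritic cells had low sums in members. Of the T cell list, 4 of 11 genes reached the level for testing and the sum was 4.06, 4.13 and 6.54 CPM, led by Trac, with Bcl11b at 0 and Cd3e at 0 by the rule. The B cell list (2 of 8) summed to 48.7, 48.3 and 49.9, led by Ighm and then Cd79b (2.90, 3.40 and 6.14), with Cd79a and Ms4a1 at 0, and the neutrophil list (1 of 8) to 4.64, 4.61 and 2.97, led by Csf3r, with S100a9 and Retnlg at 0. The stroma list (0 of 10) summed to 2.51, 3.16 and 3.37, led by Sparc with Lum at 0, the endothelium list (4 of 8) to 26.7, 27.9 and 24.2, led by Eng and then Pecam1 (3.86, 3.16 and 3.17) with Cldn5, Emcn and Tek at 0, and the erythroid list (1 of 8) to 1.16, 0.728 and 2.77, led by Car2 with Alas2 at 0. The NK list (9 of 11) summed to 58, 78.7 and 97.7 CPM, led by Klrk1, with Ncr1 at 0 by the rule, and highest in sGSN-/-Clec9a-/-, and the plasmacytoid list (7 of 8) to 116, 95.2 and 125, led by Tcf4. Mast cell genes (0 of 8) summed to 0.193, 59.2 and 0.396 CPM, led by Cma1, with almost all of it in the sGSN-/- library. Lists of conventional dendritic cells, which the sort was made for, had larger sums. The lineage list (11 of 12) summed to 543, 649 and 669 CPM in members, led by Naaa, with Xcr1 at 0 by the rule, against 4359.8, 4316 and 4354 in cycling Xcr1 cells. The cDC2 list (10 of 10) summed to 1063, 1194 and 1092 CPM, led by Mgl2 with no gene at 0, against 313, 356 and 375 in cycling Xcr1 cells. The monocyte list (11 of 12) summed to 4666, 5043 and 5337 CPM in members, and the macrophage identity list to 11447, 11345 and 11229. With the libraries pooled, the monocyte marker Ccr2 had 775 CPM in members with 5 to 19 C1q UMIs and 680 in those with 200 or more. Csf1r had 204 and 368 there, and the monocyte gene Ly6c2 3.51 and 6.25. A doublet score placed 6.34% of members among the top 6% of barcodes, against 3.37% of C1q macrophages outside the cycle and 9.52% of cycling Xcr1 cells, and each fit was repeated without those barcodes. The part of transcripts of these other cell types in the results was not tested.

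Members were spread over the division cycle. With every cell thinned to 8000 UMIs (10 shallower members left out), the 479 members had a median of 19 UMIs from 34 replication genes and 31 from 65 mitotic genes, against 3 and 4 in macrophages outside the cycle. Mitotic UMIs exceeded replication UMIs in 59.5% (52.3 to 66.4), 72.2% (63.5 to 79.8) and 73.9% (66.1 to 80.6) of members. The WT library was the lowest, and it was the lowest as well among cycling Xcr1 cells, with 63.3%, 69.5% and 67.6%, and cycling Ncr1 cells, with 56.4%, 65.7% and 67%. A difference between genotypes was not tested with 1 library each. Over members the rank correlation of the 2 sums was -0.095, and over 779 cycling Xcr1 cells it was -0.394. These are descriptions over cells of 3 libraries at 1 depth, and the rule selects on genes that peak late in the cycle.

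**Figure D1:**
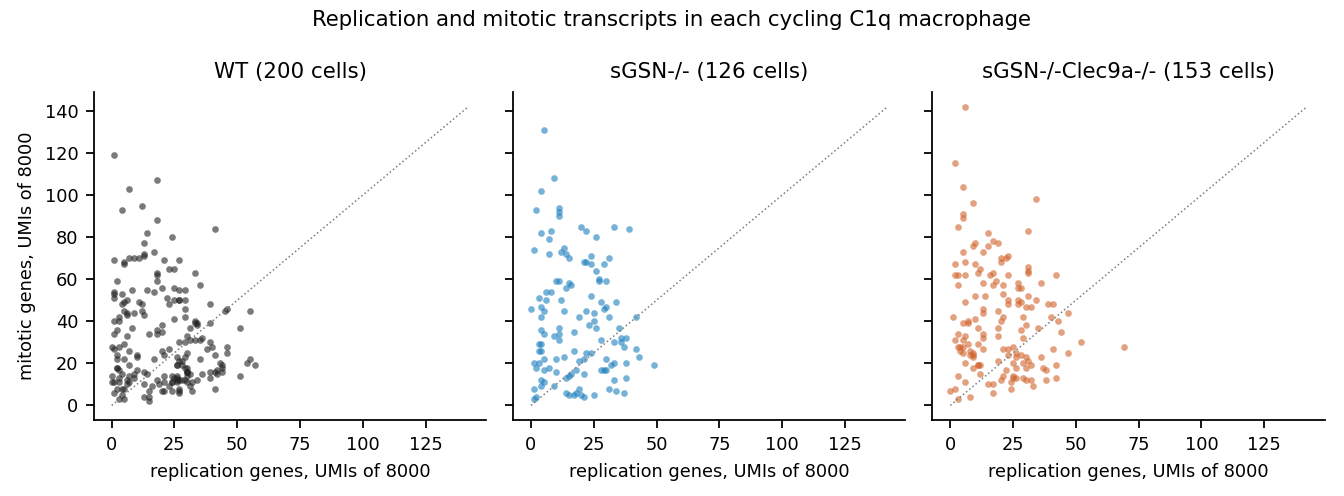
Each point is a cycling C1q macrophage thinned to 8000 UMIs, with UMIs from 34 replication genes on the x axis and from 65 mitotic genes on the y axis, and the dotted line marks equal numbers. Cells lie on both sides of the line, 67.4% of them above it.

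The first comparison asked what set dividing macrophages apart from macrophages of the same tumours outside the cycle. Genes of DNA replication, chromosome condensation and mitosis were higher in members, while hypoxia and glycolysis genes, antigen presentation genes and several macrophage genes were lower. Since members were selected on Mki67 and Top2a, higher division genes follow in part from the choice, and the genes of the rule were given no test. Of 11423 genes tested, 3620 passed the test (31.7%), 1717 higher (15%) and 1903 lower (16.7%), with a median over all genes of -0.05. Without TMM scaling the all-gene median moved to 0.10 and 76.7% of calls were higher, against 47.4%. Leaving out the WT library left 1195 lower genes and leaving out the sGSN-/- library 1177. Members were deeper than the cells they were compared with. Among cells of 19909 to 34997 UMIs, 2774 genes passed, including 2180 of the 3620 in the same direction.

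All 34 replication genes rose, with a median of 2.02. Mcm10, which helps to start the replication fork, stood at 25.1, 23.3 and 24 CPM in members and 0.828, 0.609 and 1.78 outside the cycle. Every library of members was thus far above every library of the other class, by 4.37 ± 0.25, adjusted p = 2.9e-10. Pcna, the sliding clamp of DNA polymerases and the most abundant of the list, had 289.6, 273 and 287 against 87.4, 93.8 and 94 CPM (1.48 ± 0.07, adjusted p = 2.9e-11). The smallest change was that of Gins4 (0.76), a subunit of the replicative helicase. The supply of DNA building blocks moved the same way, with 17 of 17 genes higher and a median of 1.16. Rrm2, the regulated subunit of ribonucleotide reductase, had 107, 108 and 109 against 1.45, 2.19 and 1.34 CPM (5.95 ± 0.15, adjusted p = 2.0e-14). Thymidine kinase Tk1 (4.51) and thymidylate synthase Tyms (3.82) followed.

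Among cyclins and their kinases, 10 of 13 rose and 1 fell, with a median of 2.62. Cyclin A2, which acts in S phase and G2, rose most: Ccna2 had 63.4, 88.6 and 92.9 CPM in members and 0.662, 1.22 and 0.535 outside the cycle (6.62 ± 0.22, adjusted p = 2.5e-13). Ccne2 (4.74) and Ccne1 (3.43), cyclins of S phase entry, and Ccnb1 (4.68), Ccnb2 (3.33) and Cdk1 (4.57), which drive mitosis, were higher as well. Ccnd2, a cyclin that links growth signals to the cycle, was lower, at 174, 187 and 173 against 217, 249 and 228 CPM (-0.53 ± 0.10, adjusted p = 4.7e-04). Its levels in members were below those of every library outside the cycle. Without the WT library 9 cyclin and kinase genes rose and 2 fell, and without the filter on low counts 2 fell, the other being the related Ccnd1 (-0.18, adjusted p = 0.116 with all libraries, and -0.32, adjusted p = 0.0115 without WT). Of E2F, MYB and FOXM1 factors, which regulate cycle genes, 12 of 14 rose, led by E2f7 (6.42), a repressor of the E2F family, Mybl2 (5.52) and Foxm1 (5.39). Of the cycle inhibitors, 4 of 10 were higher, including Cdkn2c (2.53), which encodes p18, and Rbl1 (1.90), which encodes p107, whereas 1, the antiproliferative gene Btg1, fell (-0.73). With the library as a block 3 inhibitors fell, Cdkn1b (-0.22, adjusted p = 0.042) and Btg2 (-0.16, adjusted p = 0.0145) among them, against -0.22 (adjusted p = 0.0626) and -0.16 (adjusted p = 0.111) without it, and 3 fell without the filter and 2 by DESeq2 or with Mki67 of 1 or more.

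Genes of chromosome segregation had the highest medians among the lists. All 28 kinetochore and chromosomal passenger genes were higher (median 4.50), as were all 28 spindle and cytokinesis genes (median 4.50). Birc5 had 218, 290.4 and 285 CPM in members against 6.62, 4.87 and 5.26 outside the cycle (5.35 ± 0.15, adjusted p = 2.1e-14), a gap with no overlap between libraries. Nuf2 (6.33), which ties microtubules to the kinetochore, had the largest change of its list and the checkpoint gene Bub3 (0.70) the smallest. Nusap1, a spindle assembly factor, had 118, 144 and 161 against 0.704, 0.609 and 0.802 CPM (7.46 ± 0.20, adjusted p = 2.1e-14). The motor Kif11 (6.54), which pushes spindle poles apart, the mitotic kinase Plk1 (5.71) and the tubulins Tubb5 (1.88) and Tubb4b (1.34) were also higher. Among genes around the anaphase-promoting complex, 11 of 13 rose, including the kinase Pbk (7.54), the activator Cdc20 (5.08) and the ubiquitin-conjugating enzyme Ube2c (4.58). Pttg1, which encodes securin, fell (-0.44), a call lost without TMM scaling (-0.28, adjusted p = 0.0826), without the WT library (-0.36, adjusted p = 0.0879) and in the depth-matched cells (-0.39, adjusted p = 0.0942). Condensins and chromatin packing genes (18 of 18, median 2.39) and DNA repair genes (16 of 16, median 3.34) behaved alike, led by Ncapg (5.87) and Fanci (5.51). Replication-dependent histone genes, whose transcripts mostly lack a poly(A) tail, were higher for 54 of 57, with Hist1h2af at 7.65 and Hist3h2a lower at -0.68. Near-identical copies make single histone genes uncertain.

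**Figure D2:**
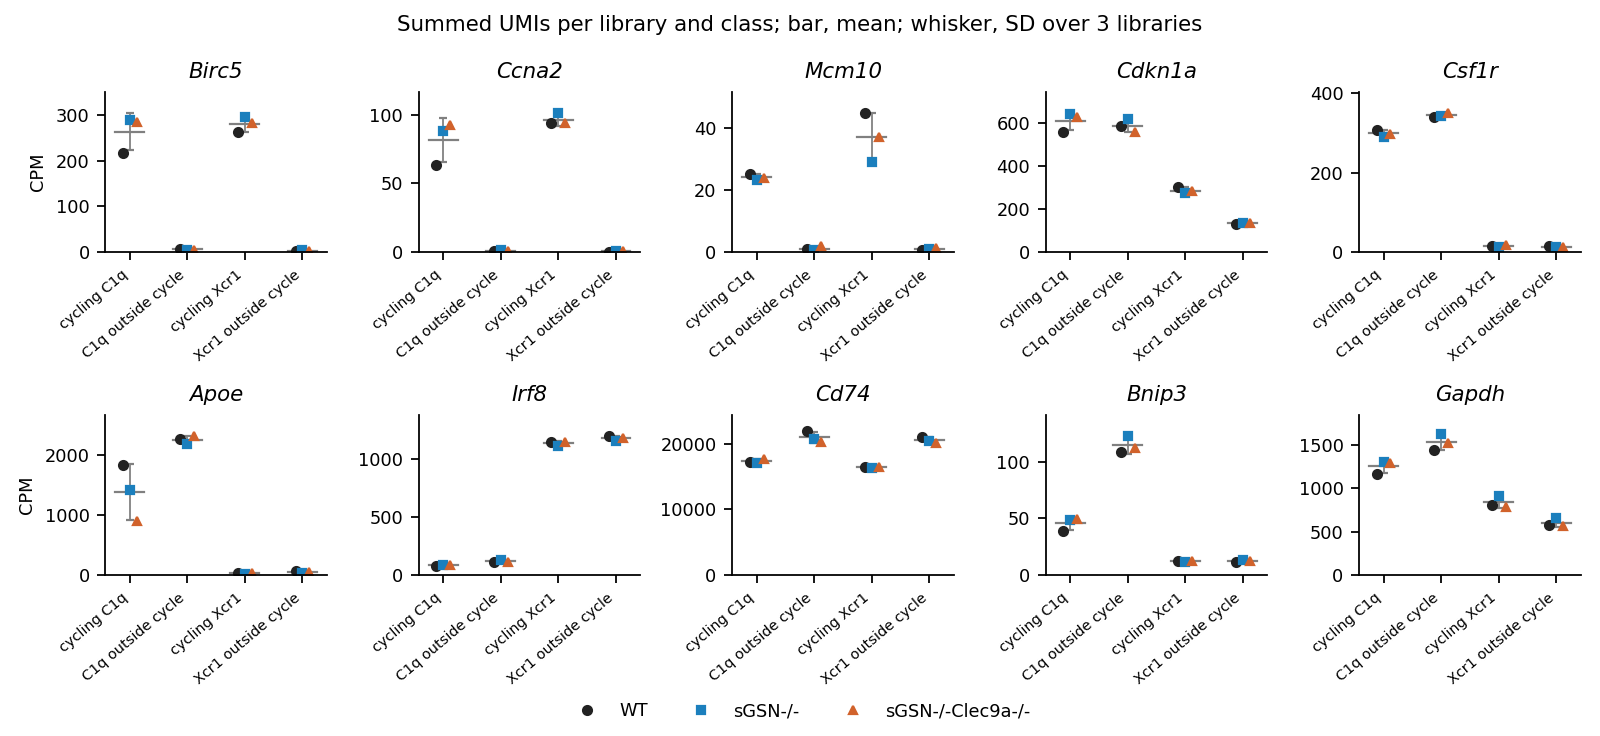
CPM of 10 genes in each library, shown by symbol, for the 4 classes on the x axis, with the mean as a bar and the SD over 3 libraries as a whisker. Division genes separate the cycling classes from the others, and Csf1r and Apoe separate the C1q classes from the Xcr1 classes.

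Macrophage genes were still expressed in members, many of them at somewhat lower levels. No gene of the macrophage identity list was higher and 16 of 25 were lower (median -0.38), although without TMM scaling 2 were higher and 10 lower, and in the depth-matched cells 1 was higher and 6 were lower. Without the sGSN-/-Clec9a-/- library 2 were higher and 12 lower. With the library as a block 1 was higher and 20 were lower. Csf1r had 308, 289 and 298 CPM in members and 340.2, 342 and 349.7 outside the cycle (-0.36 ± 0.08, adjusted p = 0.00259). The 2 sets of libraries did not overlap, but this difference did not pass without TMM scaling (-0.20, adjusted p = 0.0734) or in the depth-matched cells (-0.24, adjusted p = 0.288). Of macrophage subset genes, 10 of 18 fell (5 at matched depth), among them Thbs1 (-1.61), which encodes thrombospondin. The monocyte gene Ly6c2 fell (-1.45), with 5 of 11 monocyte genes lower. Uptake receptors included 9 lower genes of 16 (5 without TMM scaling), led by the Fc receptor Fcgr4 (-1.29).

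Antigen presentation genes were lower as a group. Of 15 genes around MHC class II, 13 fell and none rose (median -0.43, and -0.28 without TMM scaling). Cd74, the invariant chain and the most abundant of them, had 17284, 17088 and 17710.4 CPM in members and 21941, 20788 and 20299 outside the cycle (-0.43 ± 0.05, adjusted p = 1.8e-06). Its levels in members lay below those of every library outside the cycle. The checkpoint ligand Cd274 (-1.0) and the costimulators Cd40 (-0.90) and Cd86 (-0.53) were lower too. Interferon-stimulated genes were lower for 7 of 22 (12 with the library as a block, 4 without TMM scaling, 16 without the filter and 14 at matched depth), including Rsad2 (-1.52), an antiviral enzyme, and the interferon regulator Irf7 (-0.81). Of the list of lysosomal proteases and related genes, 9 of 14 were lower, led by the protease cathepsin L, Ctsl (-0.90).

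Hypoxia and glycolysis genes were lower nearly throughout. Of 20 genes tested, 18 were lower and none higher, with a median of -0.54, and in the depth-matched cells all 20 were lower with a median of -0.74. Bnip3, a mitophagy receptor induced by low oxygen, had 38.6, 48.6 and 49.1 CPM in members and 109, 123 and 112 outside the cycle (-1.49 ± 0.10, adjusted p = 1.2e-09). Every library of members lay below all 3 of the other class. Egln3 (-1.45), an oxygen sensor, Vegfa (-1.37), which promotes vessel growth, and the lipid droplet protein Hilpda (-1.34) fell by a similar amount. The glucose transporter Slc2a1 (-0.89) and the enzymes Gapdh (-0.44) and Ldha (-0.35) fell less.

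Some groups depended on the scaling or on 1 library. Ribosomal protein genes were lower by a small amount, 67 of 77 past the test and none higher (median -0.32), but without TMM scaling 42 were lower and 2 higher, and at matched depth 40 were lower. Respiratory chain genes had no common direction, with 8 higher and 13 lower of 89 (median 0.02), and without TMM scaling the split turned to 37 higher and 4 lower, with 5 lower at matched depth and 5 higher without the filter. With the WT, sGSN-/- or sGSN-/-Clec9a-/- library left out, 7, 3 and 5 were higher and 8, 8 and 6 lower. Of the chemokine list 4 of 18 fell and none rose, against 3 higher and 4 lower without TMM scaling and 1 higher and 2 lower without the sGSN-/- library. It was 2 and 7 without the filter, 2 higher at matched depth and 2 lower by DESeq2. With the library as a block 1 was higher. Of the immediate early list 6 of 20 fell, against 2 higher and 3 lower without TMM scaling and 3 lower without the sGSN-/- library. Of the p53 target list 1 of 12 rose and 4 fell, and 1 fell without the WT or the sGSN-/-Clec9a-/- library, without TMM scaling or at matched depth, and 2 by DESeq2 or with C1q sums of 50 or more.

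The second comparison set cycling macrophages against cycling Xcr1 cells of the same tumours. The cells differed by lineage in most gene groups, with macrophage, complement, uptake, lysosomal protease and chemokine genes higher in members and dendritic cell genes higher in the Xcr1 class. Of 11423 genes tested, 5723 passed (50.1%), 2875 higher in members (25.2%) and 2848 lower (24.9%), with an all-gene median of -0.02. Both classes were selected on lineage genes, C1q and Xcr1, so a difference in lineage genes follows in part from the choice.

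Macrophage identity genes were higher in members for 23 of 25, with a median of 4.11. Csf1r had 308, 289 and 298 CPM in members and 15.8, 12.9 and 18.8 in cycling Xcr1 cells (4.16 ± 0.11, adjusted p = 1.6e-14). Apoe, which carries lipids, had 1825, 1414 and 897 against 36.1, 13.2 and 27.5 CPM (5.66 ± 0.30, adjusted p = 5.5e-11). No library of one class came near those of the other. Mertk had 121 UMIs in members and none in cycling Xcr1 cells, so it was at least 55.6-fold higher against a floor of 3 UMIs over the class. The list median stays as given with Mertk at this bound. Trem2 (5.65), Ms4a7 (6.85) and the platelet factor gene Pf4 (7.52) were higher, and Aif1 was the exception at -1.12. Of dendritic cell lineage genes, 11 of 11 were lower (median -2.78), Clec9a, deleted in 1 genotype, among them. Irf8, the factor that cDC1s require, had 80.4, 84.7 and 81.8 against 1152, 1113 and 1153 CPM (-3.88 ± 0.07, adjusted p = 2.1e-16), and the growth factor receptor Flt3 was at -2.78. Genes associated with cDC2s were higher in members for 7 of 10, led by the lectin Mgl2 (3.36), with Tbc1d4 lower (-2.53). Cd7 (-0.55, adjusted p = 0.195) was lower without the filter (-0.56, adjusted p = 0.0126) and with C1q sums of 50 or more (-0.86, adjusted p = 0.0372), and its sign turned, with no call, without the top-scored doublets and with Mki67 of 1 or more.

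Transcripts of secreted proteins and of uptake receptors differed as well. Chemokine genes were higher for 13 of 18 and lower for 3, against 1 in the depth-matched cells (median 2.18). The neutrophil attractant Cxcl1 had 38.6, 124 and 79.9 CPM in members and 0, 0 and 0.166 in cycling Xcr1 cells, and Ccl2, which attracts monocytes, was at 2.24. Cxcl9, a T cell attractant, was lower, with 14.5, 7.04 and 0.793 against 103, 52.7 and 79.6 CPM (-3.47 ± 0.50, adjusted p = 1.6e-05). Of the complement list, which without the C1q genes of the rule had 11 tested, 10 were higher, including the receptors C5ar1 (5.82) and C3ar1 (5.53). Uptake receptors were higher for 13 of 16 and lower for 3, among the higher ones the scavenger receptors Stab1 (5.19) and Msr1 (5.13), while Cd36 (-1.46) and Timd4 (-2.78) were lower. Of the lysosomal protease list, 11 of 14 were higher and 2 lower, with the protease Ctsd at 244, 269.7 and 309 against 13.7, 13.9 and 23.1 CPM (3.95 ± 0.18, adjusted p = 7.7e-12), and the protease inhibitor Cst3 was lower (-2.54). Among monocyte genes 7 of 11 were higher and 2 lower, led by F13a1 (6.17), a transglutaminase, and Plac8 was lower (-2.00). Abca1, a cholesterol exporter, was the largest of 9 higher lipid genes of 19 (4.71).

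Hypoxia and glycolysis genes were higher in members than in cycling Xcr1 cells for 17 of 20, with a median of 0.72. Bnip3 had 38.6, 48.6 and 49.1 against 12.3, 11.2 and 12.2 CPM (1.85 ± 0.12, adjusted p = 1.2e-09), and Egln3 (3.14) and Vegfa (2.88) differed more. The phosphofructokinase gene Pfkp went the other way (-1.50). Class II genes split, 4 of 15 higher and 7 lower (5 and 5 without TMM scaling), with the protease Ctss at 2.07 and H2-Aa at -0.29. Of 22 interferon-stimulated genes 11 were lower in members (7 without the sGSN-/-Clec9a-/- library) and 5 higher (2 in the depth-matched cells). The most negative change was that of Ifi205, with 13.1, 16 and 13.7 against 455, 482 and 437 CPM (-5.10 ± 0.20, adjusted p = 1.4e-12). Among growth factor receptors, Kit was lower (-3.12) and Igf1r higher (1.82).

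Cyclins and cycle inhibitors differed between the classes in both directions, in a comparison where 25.2% of all genes were higher in members and 24.9% lower. Whether these short lists differed from those shares was not tested. Among 13 cyclins and kinases 1 was higher in members (2 with the library as a block or without the filter) and 5 were lower. The lower ones were 3 without TMM scaling or without the sGSN-/- or sGSN-/-Clec9a-/- library, and 2 without the WT library or at matched depth. Among 10 cycle inhibitors 2 were higher (4 without the filter) and 4 lower. Ccnd2 had 174, 187 and 173 CPM in members and 66.7, 71.3 and 47.8 in cycling Xcr1 cells (1.43 ± 0.11, adjusted p = 4.5e-09), and Ccnd3 was lower (-0.49). The inhibitor Cdkn1a, which encodes p21, had 559.9, 641 and 627 against 302, 273 and 284 CPM (1.0 ± 0.07, adjusted p = 1.8e-09), whereas Cdkn1b, which encodes p27, was lower (-1.07). Libraries of the classes did not overlap for Ccnd2 or Cdkn1a. With cells of all depths, division genes themselves were slightly lower in members: 16 of 34 replication genes, 14 of 28 kinetochore genes and 20 of 28 spindle genes. The medians of these lists were -0.24, -0.31 and -0.43. Among cells of matched depth 3, 2 and 3 were lower, with list medians of -0.09, -0.009 and -0.16. There 1 kinetochore gene, the checkpoint kinase Bub1, was higher (0.44, adjusted p = 0.0229, against 0.12, adjusted p = 0.391, in all cells), as was 1 spindle gene. Without the WT or the sGSN-/- library 9 or 8 kinetochore genes were lower. Spc24 (-0.72) of the kinetochore, Kif23 (-0.81), a motor of cytokinesis, and the histone variant H2afx (-1.28) were lower, and Anln (0.56), a scaffold of the cleavage furrow, higher.

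**Figure D3:**
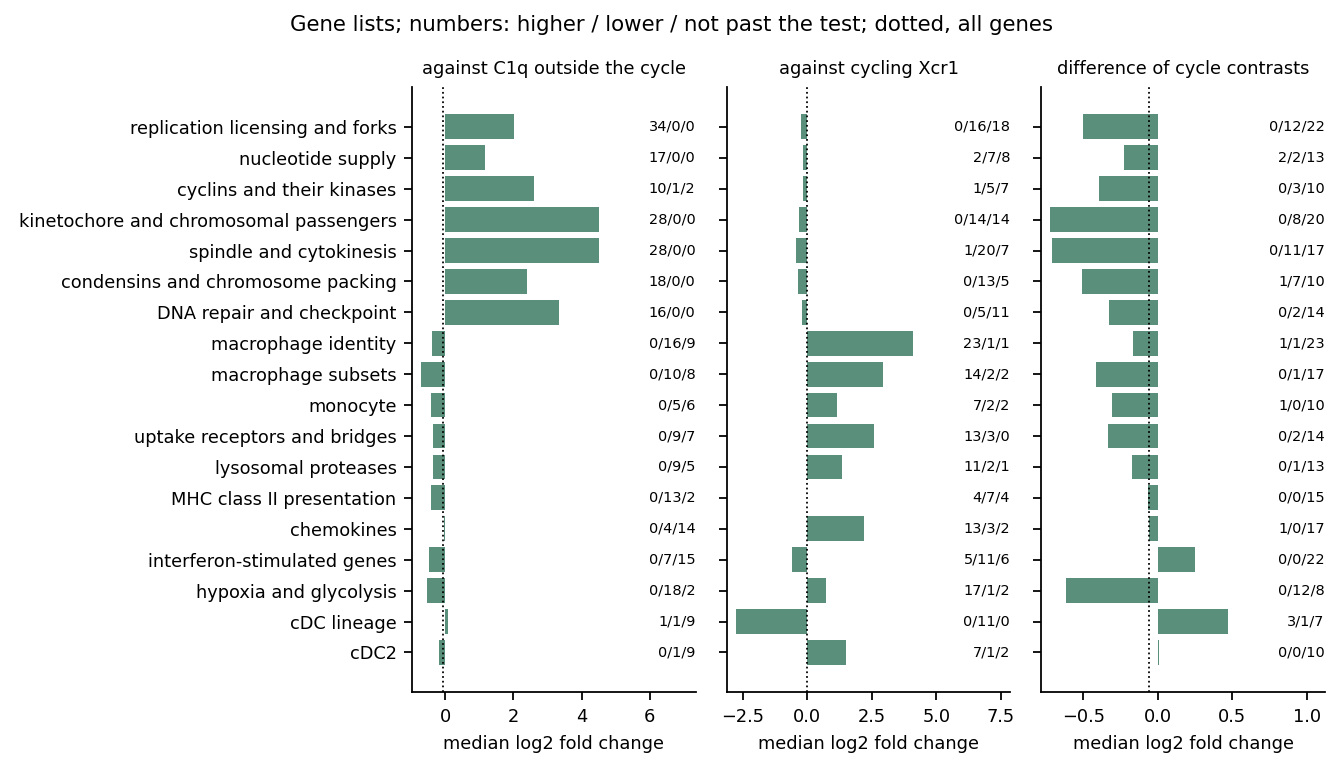
Bars show the median log2 fold change of each gene list in the 3 comparisons, the dotted line the median over all genes tested, and the numbers the genes higher, lower and not past the test. Division lists stand far above the line only in the comparison with macrophages outside the cycle, and the negative values of division lists in the right panel lay closer to 0 in cells of matched depth.

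The third comparison asked whether entry into the cycle went with a different change in macrophages than in Xcr1 cells, tested as the difference of the cycle contrasts. Fewer genes passed the test than in the other comparisons, and most of them did not pass in cells of matched depth. A gene that did not pass is not shown to change alike in both classes. Of 11423 genes, 416 passed (3.64%), 104 with a higher contrast in macrophages (0.91%) and 312 with a lower one (2.73%), around an all-gene median of -0.06. In cells of 19909 to 34997 UMIs, 142 genes passed, 93 higher and 49 lower, and of the 416 genes 29 passed in the same direction and 3 in the opposite one. The share of calls that were higher was 25%, against 47% without TMM scaling and 38.4% by DESeq2, and the number of genes fell to 148, 87 and 158 when the WT, sGSN-/- or sGSN-/-Clec9a-/- library was left out, with 27, 13 and 33 of them higher and 121, 74 and 125 lower. With the library as a block it was 869.

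Over 12 alternatives, 14 of the 416 genes passed in the same direction each time, and they were named after these values were seen. Espl1, which encodes the protease separase, had 19.9, 25 and 27.7 and 19.9, 18.7 and 18.9 CPM in macrophages inside and outside the cycle and 13.9, 13.2 and 15.8 and 1.76, 1.21 and 2.20 in Xcr1 cells, a difference of contrasts of -2.79 ± 0.24, adjusted p = 8.0e-06. It was higher inside the cycle in Xcr1 cells and did not pass the test between macrophages inside and outside the cycle (0.18, adjusted p = 0.364). The glycolytic enzyme Gapdh had 1166, 1308 and 1290 and 1442, 1628 and 1525 CPM in macrophages and 808, 917 and 789 and 570.5, 653 and 567 in Xcr1 cells (-0.86 ± 0.11, adjusted p = 2.1e-04). In every library it was lower inside the cycle in macrophages and higher inside the cycle in Xcr1 cells. Tpi1 (-0.89), another glycolytic enzyme, the oxidoreductase Ero1l (-1.25) and the cytokine gene Mif (-1.14) had lower contrasts, as did Gas2l3 (-2.26), the condensin gene Ncapg2 (-1.67), Cks2 (-1.57), the tubulin Tuba1b (-0.89) and the nuclear pore gene Nup133 (-1.15). Higher contrasts were those of Fanca (1.97), Tcf19 (1.80), the tetraspanin Cd81 (1.08) and the iron regulator Hfe (1.07). Of the hypoxia and glycolysis list, 12 of 20 had a lower contrast in macrophages (median -0.62), 6 at matched depth (median -0.60) and 7, 5 and 7 without the WT, sGSN-/- or sGSN-/-Clec9a-/- library. Replication, kinetochore and spindle genes had 12, 8 and 11 lower contrasts, which became 0, 0 and 1 at matched depth, with 6 replication genes without TMM scaling and 13 kinetochore genes without the filter. Left-out libraries mattered as well: without the WT, sGSN-/- or sGSN-/-Clec9a-/- library, 4, 2 and 2 replication genes, 5, 5 and 5 kinetochore genes and 6, 3 and 7 spindle genes had lower contrasts.

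The share of C1q macrophages in the cycle gate was 9.69% in WT (95% Clopper-Pearson interval 8.45 to 11), 16.9% in sGSN-/- (14.3 to 19.7) and 14.3% in sGSN-/-Clec9a-/- (12.3 to 16.5). WT was lowest and its interval lay below both others, but intervals cover counting error only, and with 1 library a genotype the difference was not tested and library and genotype cannot be told apart. Thinning was done before the gates were applied, so that cells could enter or leave a gate. With each cell thinned to 8000 UMIs (253 C1q macrophages were too shallow and left out) the shares were 5.62%, 10.3% and 11.1%. WT was again the lowest. Xcr1 cells had 13.9%, 18.7% and 17% in the cycle gate, above macrophages in each library. The difference did not pass, with p = 0.4 by a 2-sided exact permutation test over 3 against 3 libraries, whose smallest possible p is 0.1. Both gates come from the same libraries, and paired within them, a test added after the data were seen, the exact p was 0.25, the smallest that 3 pairs allow. The order depended on the setting: thinned, Xcr1 cells had 8.76%, 12.5% and 10.1%, below macrophages in sGSN-/-Clec9a-/-, and with C1q sums of 50 or more macrophages had 10.9%, 20.2% and 18.1% and were above Xcr1 cells in 2 of 3 libraries (exact permutation p = 1). Ncr1 cells had 21.6%, 17.7% and 14.8% (exact permutation p = 0.2), above macrophages in each library, but in 2 of 3 with C1q sums of 10 or more and in 1 of 3 with sums of 50 or more. Thinned, the exact permutation p was 0.7 against Xcr1 cells and 0.1 against Ncr1 cells.

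**Figure D4:**
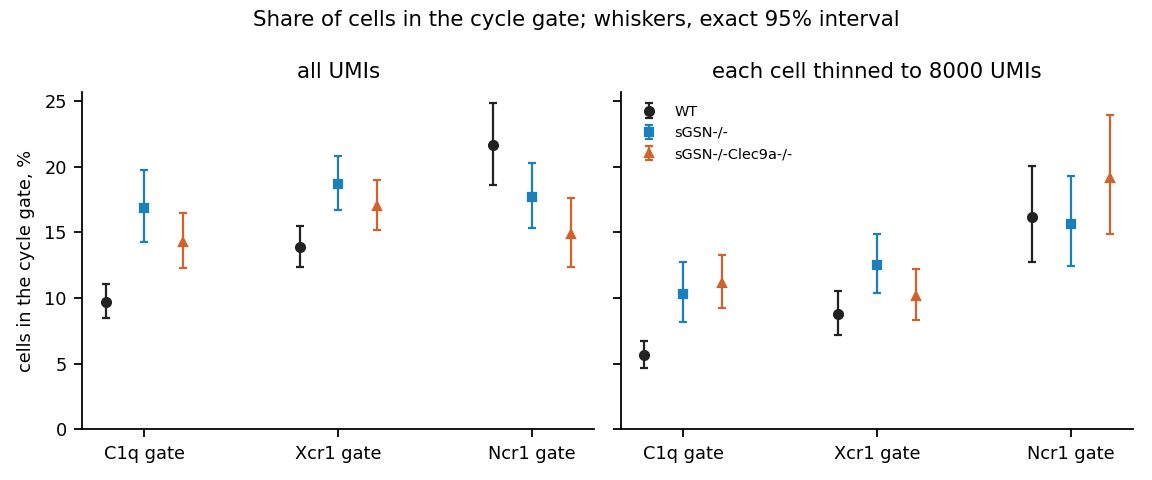
Share of cells in the cycle gate for the C1q, Xcr1 and Ncr1 gates in each library, with exact 95% intervals, from all UMIs on the left and with cells thinned on the right. The WT point of the C1q gate is the lowest of its gate in both panels.

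Few genes differed by 2-fold or more between the genotypes in members. Of 2915 genes at 50 CPM or more in the higher library, 1 was at least 2-fold higher and 6 at least 2-fold lower in sGSN-/- than in WT. For sGSN-/-Clec9a-/- against sGSN-/- (2855 genes) the numbers were 3 and 1, and for sGSN-/-Clec9a-/- against WT (2896 genes) 9 and 12. No test was possible with 1 library each, the 2-fold rule was set after the data were seen, and the intervals given are exact 95% Poisson intervals of counting error. Maf, a macrophage transcription factor, had 56.2 (49.9 to 63.1), 19.7 (15.6 to 24.4) and 19.4 (15.8 to 23.7) CPM, and the monocyte chemokine Ccl12 64.3 (57.6 to 71.6), 23.6 (19.1 to 28.7) and 18.6 (15.1 to 22.8). The membrane protein gene Ms4a7 had 159 (148 to 170), 70.9 (63 to 79.5) and 53.1 (46.9 to 59.9) CPM. All 3 were highest in WT. Outside the cycle Maf had 23, 21.3 and 24.4 CPM, which are close to each other, whereas Ccl12 with 40.4, 31.3 and 25.8 and Ms4a7 with 167, 98.2 and 113 were highest in WT there as well. Between sGSN-/-Clec9a-/- and WT the lowest ratio was that of Hspa1b and the highest that of Lyz1, and both are uncertain, since Hspa1a and Lyz2 are close copies that can share their reads. Hspa1b, a heat shock gene induced by stress, had 360.3 (344 to 377), 134 (123 to 146) and 102 (93.8 to 112) CPM in members and 306, 191 and 199.6 outside the cycle, highest in WT in both classes. Lyz1, a lysozyme gene, had 6.76 (4.71 to 9.40), 38.4 (32.6 to 44.8) and 79.7 (72.1 to 87.8) CPM in members and 25.7, 79.2 and 97.2 outside the cycle, lowest in WT in both. F10, which encodes coagulation factor X, had 12.9, 26.5 and 52.1 CPM in members. Outside the cycle F10 had 32.4 CPM in WT and 26.9 in sGSN-/- and was highest in sGSN-/-Clec9a-/-. The neutrophil attractant Cxcl1 was lowest in WT, with 38.6 (33.5 to 44.4), 124 (114 to 135) and 79.9 (72.3 to 88) CPM, and so was the mitotic gene Ube2c, with 80.2 (72.6 to 88.3), 159 (147 to 172) and 194 (182 to 206). Outside the cycle Cxcl1 was also lowest in WT, with 59.3, 98.8 and 65.4 CPM, and Ube2c had 5.05, 6.09 and 5.61. Cebpb, a factor of myeloid differentiation, stood at 412 (394 to 429.6), 368 (349.5 to 387) and 144 (133 to 155) CPM and was lowest in sGSN-/-Clec9a-/-, while Mmp12, a macrophage elastase, was highest there with 33.8 (29 to 39.2), 44.2 (38 to 51.1) and 98.3 (89.8 to 107). The same held outside the cycle, with 629.7, 483 and 177 CPM of Cebpb and 133, 106 and 183 of Mmp12. Apoe was named after its values were seen: 1825, 1414 and 897 CPM in members and 2264, 2186 and 2310.2 outside the cycle. It differed between libraries in members and hardly outside the cycle.

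Members varied with their C1q content. They were divided into 67 cells with 5 to 19 C1q UMIs, 58 with 20 to 49, 206 with 50 to under 200 and 158 with 200 or more, at median depths of 23751, 26472.5, 24875.5 and 25100 UMIs. These are ranges, not types, and no test was made. Over these ranges, with the libraries pooled, Apoe went through 116, 227, 801 and 3050.2 CPM and Trem2 through 47.4, 86.9, 152 and 301. Csf1r went through 204, 256, 286 and 368 CPM and C5ar1 through 15.2, 29.4, 32.3 and 82.5. All 4 were highest in the cells richest in C1q, in each library. Retnla, a gene of alternative activation, had 1177, 985, 515 and 291 CPM, the lectin Cd209a 156, 123, 135 and 75 and the dendritic cell receptor Flt3 31, 26.4, 22.9 and 11.6. These 3 were lowest in the cells richest in C1q in each library, but where they were highest differed. In sGSN-/- Retnla was highest at 20 to 49 C1q UMIs (681, 2408, 319.5 and 71.7 CPM over the ranges, which held 18, 10, 54 and 45 cells), in both knockout libraries Cd209a was highest at 50 to under 200 (141, 143, 166 and 59.3 in sGSN-/-, 134, 145, 148 and 77.4 in sGSN-/-Clec9a-/-), and in sGSN-/-Clec9a-/- so was Flt3 (23.7, 23.3, 25.8 and 6.51), and otherwise each was highest in the cells with least C1q. In sGSN-/-Clec9a-/- the ranges held 20, 19, 72 and 48 cells, so values of the ranges with least C1q rest on few cells. Birc5 had 250.4, 152, 261 and 308 CPM and was lowest at 20 to 49 C1q UMIs in each library. Just below the limit were 185 cycling cells with 1 to 4 C1q UMIs. They had 40.7, 5.33 and 169 CPM of Apoe and 116, 98.1 and 138 of Csf1r in the 3 libraries, with 60.2, 60.7 and 33.7 of Flt3 and 26.8, 22.4 and 0 of Clec9a, which is deleted in the last. Members with 5 to 19 C1q UMIs had 175, 89.8 and 71.1 CPM of Apoe, 216, 178 and 219 of Csf1r and 34.7, 33.5 and 23.7 of Flt3. Csf1r was thus lower and Flt3 higher just below the limit in each library, while Apoe was lower in WT and sGSN-/- and higher in sGSN-/-Clec9a-/-.

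Because the segregation genes rose together, their promoters were searched for the letters TTTGAA or TTCGAA, the core of the cell cycle genes homology region (CHR), and CCAAT, each on both strands, in windows of 300 bases, most of them before the gene start (RefSeq, GRCm38.p6). A gene counted where any of its windows held the letters. The CHR letters were found in the windows of 20 of 25 spindle genes with a window (80%) and 14 of 23 kinetochore genes (60.9%), against 16.9% of genes tested and 19.2% of all windows. CCAAT was found in 64% and 73.9%, against 43.1% of genes tested and 37.4% of all windows. Replication genes held the CHR letters in 7 of 25 (28%) and CCAAT in 64%, and genes around the anaphase-promoting complex in 45.5% and 81.8%. GGCGGGA, letters bound by E2F factors, was found on either strand in 40% of replication, 34.8% of kinetochore and 24% of spindle genes. The shares were 38.9% for hypoxia and glycolysis genes and 12.5% for macrophage identity genes, against 24.3% of genes tested and 11.3% of all windows. ACGTG, the core letters of the hypoxia response element, was found in 13 of 18 hypoxia and glycolysis genes with a window (72.2%). The shares were 30.0% of genes tested, 19.6% of all windows, 28% of spindle and 39.1% of kinetochore genes. Macrophage identity genes, many of them lower in members as well, held it in 1 of 16 (6.25%). A match is a description of the letters and not of binding, and motifs and genes were chosen after the values were seen. The 3 segregation genes of largest log2 change whose window holds both kinds of letters are shown, CHR and CCAAT matches in capitals: Kif11 (chr19:37376132-37376431, plus strand), Hmmr (chr11:40733388-40733687, minus strand) and Kif4 (chrX:100625815-100626114, plus strand). Birc5 and Nusap1 have no such letters in their windows. In Bnip3 (chr7:138909457-138909756, minus strand), where ACGTG and its reverse complement CACGT overlap, and Egln3 (chr12:54203825-54204124, minus strand), capitals mark the hypoxia letters.
Kif11: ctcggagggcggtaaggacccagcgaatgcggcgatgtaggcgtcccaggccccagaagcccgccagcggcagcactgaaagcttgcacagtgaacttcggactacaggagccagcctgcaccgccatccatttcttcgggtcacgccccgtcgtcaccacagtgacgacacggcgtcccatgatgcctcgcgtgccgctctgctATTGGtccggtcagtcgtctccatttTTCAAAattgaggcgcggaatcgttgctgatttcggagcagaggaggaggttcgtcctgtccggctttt
Hmmr: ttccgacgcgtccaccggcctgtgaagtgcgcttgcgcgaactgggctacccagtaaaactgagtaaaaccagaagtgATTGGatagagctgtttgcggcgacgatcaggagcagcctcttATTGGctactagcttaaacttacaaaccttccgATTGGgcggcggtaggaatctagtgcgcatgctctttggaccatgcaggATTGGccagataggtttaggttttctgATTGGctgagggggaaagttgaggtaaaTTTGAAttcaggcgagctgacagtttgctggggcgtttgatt
Kif4: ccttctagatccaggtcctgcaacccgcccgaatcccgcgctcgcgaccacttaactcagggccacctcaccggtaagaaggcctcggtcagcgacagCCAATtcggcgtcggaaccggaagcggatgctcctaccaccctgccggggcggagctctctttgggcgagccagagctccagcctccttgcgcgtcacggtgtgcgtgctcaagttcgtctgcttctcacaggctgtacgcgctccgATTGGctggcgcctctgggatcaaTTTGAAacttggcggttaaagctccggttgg
Bnip3: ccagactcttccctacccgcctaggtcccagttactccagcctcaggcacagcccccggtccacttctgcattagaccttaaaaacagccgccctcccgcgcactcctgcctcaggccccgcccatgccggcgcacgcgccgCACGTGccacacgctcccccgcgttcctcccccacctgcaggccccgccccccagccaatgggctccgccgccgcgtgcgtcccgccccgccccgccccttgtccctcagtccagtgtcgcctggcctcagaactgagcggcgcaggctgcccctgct
Egln3: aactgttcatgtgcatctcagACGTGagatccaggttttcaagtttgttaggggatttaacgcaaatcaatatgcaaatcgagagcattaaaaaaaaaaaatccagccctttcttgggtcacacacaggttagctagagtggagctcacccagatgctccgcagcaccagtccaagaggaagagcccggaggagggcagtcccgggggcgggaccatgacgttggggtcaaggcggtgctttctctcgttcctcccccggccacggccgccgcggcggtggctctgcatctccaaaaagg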

How the data were processed

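The authors sorted cells, made 10x libraries and deposited 1 filtered matrix of raw counts a library, with the UMIs of each gene in each barcode (Cell Ranger 6.0.1 per the file headers, mm10), and a table of cDC1s with counts per cell and labels made in Seurat (4.0.0 in the submitters' processing notes, version 3 in the methods of the study), from which they had removed dying, T, NK, plasmacytoid and proliferating cells. The table was used here only to leave its barcodes out of the C1q classes. UMIs were summed per library and class (4 classes, 3 libraries) and fitted in edgeR 4.0.16 (R 4.3.3) by the quasi-likelihood F-test with TMM scaling, filterByExpr and Benjamini-Hochberg adjustment at 0.05, with class as the only term. Genes of the rule and mt- genes got no test. Named genes were those of the rule; of each list the gene of highest CPM, the largest and smallest log2 change past the test and members past it against the direction of most (any member of a list of up to 14); and in each comparison the 10 largest and 10 smallest log2 changes among genes past the test, at 20 CPM or more in the higher class and with 1 direction in the 3 libraries. Some genes of the lists are not reported here. Members and lists were chosen with earlier results of these data known. Doublets were scored with Scrublet in scanpy 1.11.5, whose automatic threshold called 466, 0 and 0 barcodes, and the top 6% a library were left out as an alternative. Python 3.11.15, scipy 1.17.1, numpy 2.4.6, pandas 2.3.3 and matplotlib 3.10.9 were used, with positions from GENCODE M21. The 38 symbols shared by several genes are not told apart by name.

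The fit was also tested on simulated counts with known changes, drawn with means and dispersions taken from the fit to the data. Each library holds all classes of the same pool of mice, which pairs the classes, and deviations from the class means of members and macrophages outside the cycle correlated at 0.183, 0.0842 and 0.165 across genes, which are not independent. With pooled mice and 1 library a genotype, p-values measure the spread between libraries that differ in genotype. Alternatives were no TMM scaling, DESeq2 1.42.0, no filter on low counts, the library as a block, each library left out, cells of matched depth, no top-scored doublets, C1q sums of 10 or 50 or more, Mki67 of 1 or more, a mitochondrial limit of 5%, thinning to 8000 UMIs and, for shares, gates paired within libraries.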

Additional observations from a re-analysis of the deposited data

Results flagged for a closer look

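The change with the cycle differed between C1q macrophages and Xcr1 cells for 416 genes by the test of the difference itself. Among those named, the difference (macrophages minus Xcr1 cells, log2) was 1.08 for Cd81, -1.57 for Cks2, -1.25 for Ero1l, -2.79 for Espl1, 1.97 for Fanca, -0.86 for Gapdh, -2.26 for Gas2l3, 1.07 for Hfe, -1.14 for Mif, -1.67 for Ncapg2, -1.15 for Nup133, 1.80 for Tcf19, -0.89 for Tpi1 and -0.89 for Tuba1b. Members had a median depth of 25021 UMIs and macrophages outside the cycle 15059. Cycling Xcr1 cells had 23757 and Xcr1 cells outside the cycle 14967. The part of depth in these differences beyond the matched cells was not tested.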

How the results depend on the processing

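The comparison of cycling macrophages with cycling Xcr1 cells kept its number of genes past the test within 1.5 times under each alternative. For macrophages inside against outside the cycle, 2648 genes were higher and 803 lower without TMM scaling, and 1177 to 1304 were lower with a library left out. The difference of contrasts moved most: 793 genes passed without the filter (186 higher, 607 lower), 869 with the replicate block, that is with libraries paired (253 and 616), and 87 to 158 with a library left out (13 to 33 and 74 to 125). It gave 166 higher and 187 lower genes without TMM scaling, 179 higher by DESeq2, and 142 genes with 49 lower at matched depth. The block gave 4238 and 6117 genes in the other comparisons, and of the counts given for gene lists it moved by over 1.5 times, or from 0, those with its value beside them. Against cycling Xcr1 cells, Cd7 turned to 0.0377 on the log2 scale without the top-scored doublets and to 0.14 with Mki67 of 1 or more, neither past the test. Fewer libraries and untested low genes are part of how these alternatives are built, and otherwise the cause was not tested. Thinning to 8000 UMIs before the gate gave 293 cycling macrophages, not all of them members, since a cell could enter once its UMIs of Xcr1, Ncr1 or Cd3e were thinned away. Thinned shares in the cycle gate were 5.62%, 10.3% and 11.1% for C1q, 8.76%, 12.5% and 10.1% for Xcr1, and 16.1%, 15.6% and 19.1% for Ncr1, in WT, sGSN-/- and sGSN-/-Clec9a-/-. With Mki67 at 1 UMI or more the C1q shares were 12.2%, 19.4% and 16.5% and the Xcr1 shares 16.5%, 20.4% and 19.6%. With C1q sums of 50 or more, an alternative chosen after seeing the data, the C1q shares were 10.9%, 20.2% and 18.1%. In all 12 alternatives that were fitted, which leave out the mitochondrial limit and the thinning, 1454 of 3620, 3227 of 5723 and 14 of 416 genes passed in the same direction each time.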

Other observations

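Of all genes tested between members and macrophages outside the cycle, 16.7% were lower in members and 15% higher. Complement genes other than C1q were lower in members than in macrophages outside the cycle for 6 of 11, with none higher (median -0.52, all genes -0.05), and for 3 without the sGSN-/- library and 10 with the library as a block. C3, the central component and the one with the most negative change, had 3.48, 0.971 and 4.76 against 7.28, 8.52 and 6.86 CPM (-1.38 ± 0.38, adjusted p = 0.00968). Its libraries did not overlap between the classes, but the call was lost without the WT library (-1.48, adjusted p = 0.0523), without the sGSN-/- library (-0.94, adjusted p = 0.117) and with C1q sums of 50 or more (-1.14, adjusted p = 0.0564). Of growth factor receptors and mitogenic factors, 11 of 21 were lower and none higher (7 lower without the sGSN-/- library, and 1 higher with the library as a block, without the filter or with C1q sums of 50 or more; without TMM scaling 2 were higher and 5 lower), among them Il13ra1 (-0.57), a receptor chain for IL-13.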
